A study of Mus musculus with 16 samples.

Results

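The response to depletion of tumour-associated macrophages (TAMs) was examined in the mouse glioblastomas that the labels call Type 2. The libraries were chosen by their sample titles alone: 4 Type 2 TAM depleted and 4 Type 2 Control tumours, 8 of the 16 libraries in the series. The other 8 are 5 Type 1 Control and 3 Type 1 TAM depleted tumours, which entered the statistical model so that all 4 groups shared 1 estimate of the spread. All tumours were transplanted into mice, and RNA of the whole tumour was sequenced with the SMART-Seq v4 kit, which copies small amounts of RNA into full-length cDNA and does not mark strand. How TAMs were depleted, what the control tumours received, the alleles and cell of origin of Type 2 tumours, and the strain, sex and age of the hosts were not given in the sources consulted. Each library is 1 labelled tumour, and whether tumours grew from separate transplanted lines is not stated. The p-values thus cover only the spread among the tumours sequenced, pooled over all 4 groups of both types.

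TAMs are microglia, the resident macrophages of the brain, together with macrophages that mature from blood monocytes after these enter the tumour. They depend on signalling through the receptor CSF1R, present antigen, secrete chemokines and growth factors, and can make up a large share of the cells in a glioblastoma. Glioblastoma cells grow into brain tissue, so a tumour sample also holds neurons, astrocytes, oligodendrocytes and vessels. In bulk RNA, fewer cells of a type and less RNA per cell cannot be told apart.

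The recovered reads ranged from 4.21 to 18.3 M (mega) per library. Libraries fell into 2 sets by the abundance of 997 receptor genes for odours and pheromones, whose transcripts are normally made in sensory neurons of the nose. Controls 1 and 3 and TAM depleted 3 and 4 had 2717 to 8650 such reads per M reads and are called high-background. Controls 2 and 4 and TAM depleted 1 and 2 had 97.0 to 811 and are called low-background. These sets were drawn from the data, each holds 2 libraries of each Type 2 group, and the first principal component of the 8 libraries, with 66.5% of the variance, separated them. A single gene, Gm10800, held 58.2% of the reads in Control 1 and 13.8% in Control 3. It held 25.7% in TAM depleted 3 and 41.3% in TAM depleted 4, against 0.0491 to 1.32% in the low-background Type 2 libraries. In Type 1 the sets followed treatment, with every control in the high-background and every depleted tumour in the low-background set, so background and depletion cannot be told apart there. Reads of Y-linked genes numbered 37, 467, 190 and 880 in Controls 1 to 4 and 30, 1, 0 and 2 in TAM depleted 1 to 4, and reads of Xist, the RNA that silences an X chromosome in females, were present in all 8 libraries (2651 to 53358). The 2 groups thus differed in Y-linked reads as well as in the label, and for every result below the 2 differences cannot be told apart. Genes of oligodendrocyte precursors, which glioma cells and normal precursors express, had a mean log2(normalized count + 1) of 7.91 to 10.9 over 10 genes in the 8 libraries, above the 0.425 to 6.69 of the receptor genes.

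Transcripts of neurons and their synapses were among those that rose, and transcripts of macrophages, antigen presentation, hypoxia and matrix among those that fell. Of the 26463 genes in the test, 956 (3.61%) had an adjusted p under 0.05, 627 higher (2.37%) and 329 lower (1.24%) in the depleted tumours (limma-trend, 2-sided, Benjamini-Hochberg adjustment over all genes). Adjusted p below are from this test, levels are counts normalized by the authors' size factors, and log2 fold changes refer to the normalized count with 1 added, 4 tumours against 4, with their standard error (SE). The added 1 understates the change of low genes. The rises were larger than the falls. Among the genes that rose, 376 of 627 changed over 4-fold and 139 over 8-fold, against 103 and 12 of the 329 that fell, and the median log2 fold changes were 2.18 and -1.73 beside -0.21 over all genes tested. Protein-coding genes made up 98.2% of the rises and 90.1% of the falls, against 69.9% of all genes tested. The 4 and 4 libraries did not overlap in 526 of the 627 and 287 of the 329, against 3.86% and 3.39% of all genes (7.25% in either direction). Over all genes tested, 10742 had a log2 fold change above 0 and 15721 below 0. The counts given for each list below are to be read beside these values over all genes. Genes of a list share the same 8 libraries, so such counts are descriptions. Every one of the 956 had the same sign within the high-background and within the low-background libraries, as did 71.5% of all genes tested, and since these are the libraries of the test itself this is a description.

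The number of calls depended on single libraries and on the estimate of the spread. In the test above, this estimate pooled all 4 groups. Each Type 1 group lay within 1 background set, while each Type 2 group held libraries of both. Under upper quartile scaling 673 genes rose and 618 fell, and by limma-voom on the recovered reads 653 and 595. The number was 302 without TAM depleted 1, 285 without TAM depleted 2, 605 without Control 1 and 100 without Control 3. A fit of the 8 Type 2 libraries alone passed 0 genes by limma-trend (3194 at an unadjusted p under 0.05) and 0 by limma-voom (3631), while the same 8 libraries with the background set as a block passed 1021, among them 686 of the 956. Each gene described below is therefore given with the libraries without which its adjusted p rose above 0.05, and 90 genes, 58 higher and 32 lower, stayed past the threshold in all 8 fits that left 1 library out.

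**Figure D1:**
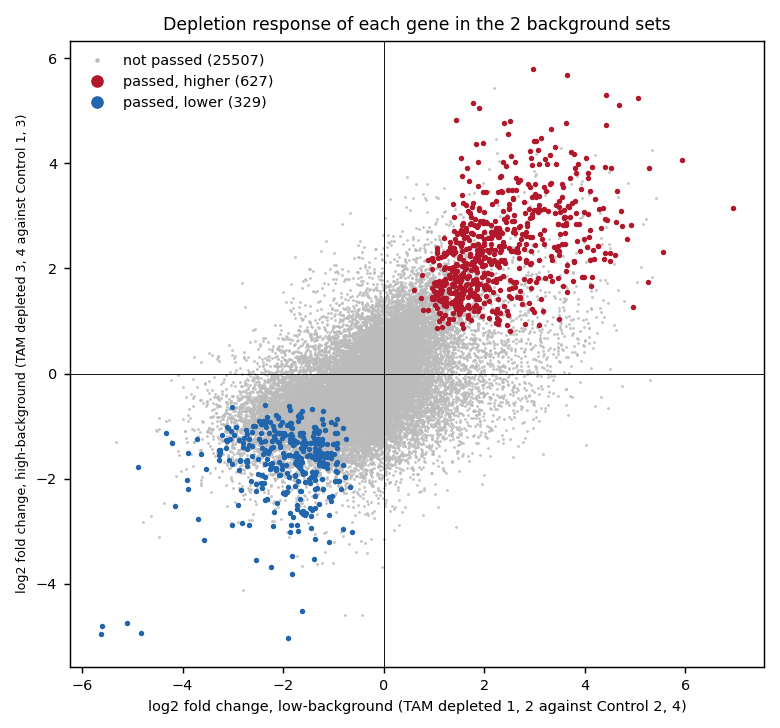
Log2 fold change of each of 26463 genes within the low-background libraries (x axis, TAM depleted 1 and 2 against Controls 2 and 4) and within the high-background libraries (y axis, TAM depleted 3 and 4 against Controls 1 and 3); grey points did not pass, 627 red points passed as higher and 329 blue points as lower. All red points lie above 0 and all blue points below 0 on both axes, and the 4 blue points at the lower left are Y-linked genes.

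The depletion itself was read from the macrophage genes. The log2 fold change was below 0 in all 24 genes of the TAM list, which holds genes shared by macrophages and microglia, and 4 of the 24 passed, beside 1.24% of all genes. Adgre1, which encodes the macrophage surface marker F4/80 (chr17:57358691-57483527, GRCm38), stood at 425, 377, 194 and 339 normalized counts in Controls 1 to 4 and 46.1, 55.6, 71.2 and 164 in TAM depleted 1 to 4. The groups did not overlap, and TAM depleted 4, a high-background library, was the highest of the depleted tumours (log2 fold change -2.10, SE 0.44, adjusted p = 0.0198 by limma-trend). The log2 fold change of Adgre1 was -1.40 within the high-background and -2.80 within the low-background libraries. Fcer1g, the signalling chain shared by activating Fc receptors, stood at 382, 480.2, 196 and 513 normalized counts in Controls 1 to 4 and 74.5, 113, 105 and 188 in TAM depleted 1 to 4. Control 3, the lowest control, lay just above TAM depleted 4, the highest depleted tumour (log2 fold change -1.69, SE 0.43, adjusted p = 0.0411). Ptprc, the pan-leukocyte marker CD45, and Cd14, the lipopolysaccharide co-receptor of myeloid cells, also fell (log2 fold change -1.75 and -1.87, adjusted p = 0.0335 and 0.0465). Leaving out single libraries, the adjusted p of Adgre1 was 0.0595 without TAM depleted 1 and 0.0601 without TAM depleted 2. That of Fcer1g was 0.0558 to 0.115 without TAM depleted 1, TAM depleted 2, Control 1, Control 2, Control 3, TAM depleted 3 or Control 4. That of Ptprc was 0.0506 to 0.0993 without TAM depleted 1, Control 1, Control 2, Control 3, TAM depleted 3 or Control 4. That of Cd14 was 0.0518 to 0.136 without TAM depleted 1, TAM depleted 2, Control 1, Control 2, Control 3, TAM depleted 3, Control 4 or TAM depleted 4. The number of TAM genes that passed was 9 without TAM depleted 4, 1 without TAM depleted 2, Control 1, Control 2, Control 3, TAM depleted 3 or Control 4 and 0 without TAM depleted 1.

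Csf1r, the receptor TAMs need to survive, did not pass: it stood at 250.2, 1172, 426 and 940 normalized counts in Controls 1 to 4 and 258, 285, 165 and 457 in TAM depleted 1 to 4 (log2 fold change -1.10, SE 0.45, adjusted p = 0.194). Control 1, a high-background library, was no higher than TAM depleted 1, 2 and 4, while Controls 2 and 4 stood above every depleted tumour. Other macrophage markers did not pass either. Aif1, the cytoskeletal protein IBA1, had a log2 fold change of -1.42 with no overlap between groups (adjusted p = 0.0548), the lysosomal marker Cd68 had -1.06 (adjusted p = 0.241), and the complement gene C1qa had -1.39 (adjusted p = 0.117). The mean log2 level of the whole list was 7.90, 8.71, 7.59 and 8.29 in Controls 1 to 4 and 6.09, 6.35, 6.61 and 7.52 in TAM depleted 1 to 4, and the median log2 fold change of its members was -0.68 within the high-background and -2.27 within the low-background libraries. In each of the 8 libraries this was above the mean over all genes tested, 5.41 to 6.44, and above that of the odour and pheromone receptors, and no member was at 0.

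The 2 sources of TAMs were described by separate lists. None of the 10 genes that mark microglia passed, and their median log2 fold change was -0.48, with 0.05 within the high-background and -1.13 within the low-background libraries. In Control 1, a high-background library, their mean log2 level of 6.73 was close to the 6.69 of the odour and pheromone receptors. It was further above the receptors in the other libraries. Tmem119 and P2ry12, both largely restricted to microglia in the brain, had log2 fold changes of -0.82 and -0.58 (adjusted p = 0.464 and 0.593). The 9 monocyte genes tested had a median of -1.91, and 1 passed: Thbs1, the matrix glycoprotein thrombospondin 1 (-1.72, adjusted p = 0.0311), which many other cells also make. Ccr2, the chemokine receptor that brings monocytes into tissue, stood at 204, 97.4, 96.2 and 165 normalized counts in Controls 1 to 4 and 7.40, 71.8, 35.6 and 70.5 in TAM depleted 1 to 4. Its groups did not overlap, and its test stopped short of the threshold (log2 fold change -1.92, SE 0.55, adjusted p = 0.0604). In fits that left out 1 library, the adjusted p of Thbs1 was 0.0647 to 0.0889 without TAM depleted 1, Control 3, TAM depleted 3 or Control 4. No test compared the microglia list with the monocyte list.

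Lymphocyte and dendritic cell genes also had fold changes mostly below 0, and none passed. All 12 T cell genes were below 0, with a median of -1.55 and 5 of 12 without overlap between groups, beside 3.39% of all genes. Cd8a, the co-receptor of cytotoxic T cells, stood at 64.3, 117, 50.8 and 108 normalized counts in Controls 1 to 4 and 2.84, 29.3, 14.0 and 42.6 in TAM depleted 1 to 4 (log2 fold change -2.29, adjusted p = 0.0771). TAM depleted 1 was the lowest, and Cd3d, a chain of the T cell receptor complex, was at 0 there. The medians were -1.72 for 8 B cell genes, -1.25 for 6 NK cell genes and -1.23 for 9 dendritic cell genes. In Control 1 the T, B, NK and dendritic cell lists all had mean log2 levels below the 6.69 of the odour and pheromone receptors (T cell 5.55, NK cell 4.92). In TAM depleted 4 all were below 5.83 (T cell 5.14, NK cell 4.72). The T, B and NK cell lists were also below in TAM depleted 3 (T cell 4.20 against 4.54), and the NK cell list in TAM depleted 1 (0.783 against 0.845). Elsewhere these lists were above the receptors. Without TAM depleted 4, 3 of the 12 T cell genes passed. Among 3 neutrophil genes tested of 9 listed, none passed.

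Some chemokine and cytokine receptor genes that macrophages and dendritic cells express fell. Of 14 chemokine ligands and receptors tested, 12 had a log2 fold change below 0 and 3 passed as lower, beside 1.24% of all genes. Ccl22, a ligand that attracts regulatory T cells, stood at 46.5, 121, 65.9 and 70.8 normalized counts in Controls 1 to 4 and 2.28, 10.8, 6.47 and 24.6 in TAM depleted 1 to 4, with no overlap (log2 fold change -2.97, SE 0.63, adjusted p = 0.0217). Cxcl16, a scavenger receptor and the ligand of CXCR6, had a log2 fold change of -2.38 (adjusted p = 0.0219). Of 4 genes of the CSF axis 1 passed. Csf2rb, the signalling chain of the GM-CSF, IL-3 and IL-5 receptors, stood at 168, 644, 303 and 346 normalized counts in Controls 1 to 4 and 31.3, 75.3, 63.6 and 105 in TAM depleted 1 to 4. Every control stood above every depleted tumour (log2 fold change -2.35, SE 0.48, adjusted p = 0.019). The growth factors of the CSF1 receptor did not pass: Csf1 had a log2 fold change of -0.27 and Il34, its alternative ligand, 0.51 (adjusted p = 0.745 and 0.671). Of 11 checkpoint genes, Cd86, a co-stimulatory ligand on antigen-presenting cells, passed (-1.90, adjusted p = 0.0196). On removal of 1 library, the adjusted p of Ccl22 was 0.0595 without TAM depleted 1 and 0.0662 without Control 3. That of Cxcl16 was 0.0641 without TAM depleted 1 and 0.0536 without Control 3. That of Csf2rb was 0.0556 without TAM depleted 1 and 0.0605 without Control 3. That of Cd86 was 0.0592 without TAM depleted 1 and 0.0506 without Control 3. The number of chemokine genes that passed was 0 without TAM depleted 1 or Control 3, and of checkpoint genes 3 without Control 1 and 0 without TAM depleted 1 or Control 3. In Control 1 the chemokine and checkpoint lists had mean log2 levels of 5.99 and 5.33, below the 6.69 of the odour and pheromone receptors. In TAM depleted 4 they had 5.53 and 5.78, below 5.83. The chemokine list was also below in TAM depleted 3 (4.49 against 4.54). Elsewhere both lists were above the receptors.

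Apart from the Y-linked genes, the MHC class II and class I lists had the lowest medians of all lists. MHC class II molecules display peptides to helper T cells and are made mainly by dendritic cells, macrophages and B cells, while MHC class I molecules are made by nearly every cell and induced by interferon. All 8 class II genes tested were below 0, with a median log2 fold change of -3.37, and 1 passed. That gene, H2-Eb2, a class II beta chain, stood at 111, 171, 181 and 249 normalized counts in Controls 1 to 4 and 3.41, 10.2, 34.5 and 47.5 in TAM depleted 1 to 4, with every control above every depleted tumour (log2 fold change -3.33, SE 0.88, adjusted p = 0.0454). The more abundant beta chain H2-Eb1 stood at 493, 3462, 1360.5 and 3200.2 normalized counts in Controls 1 to 4 and 41.5, 536, 140.2 and 62.3 in TAM depleted 1 to 4. It had a larger log2 fold change, -3.79, and did not pass (adjusted p = 0.0727), with TAM depleted 2 above Control 1. The class II median was -2.29 within the high-background and -4.41 within the low-background libraries.

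All 12 class I genes were likewise below 0 (median -1.97), and 3 passed, beside 1.24% of all genes. H2-M3, a nonclassical class I molecule that presents formylated peptides (chr17:37270220-37274484), stood at 89.4, 155, 129.99 and 329 normalized counts in Controls 1 to 4 and 5.12, 37.1, 19.4 and 26.2 in TAM depleted 1 to 4, with no overlap (log2 fold change -3.05, SE 0.61, adjusted p = 0.0176). H2-D1, a classical class I heavy chain, stood at 1895, 5129, 3226 and 5653 normalized counts in Controls 1 to 4 and 416, 1307, 909 and 675 in TAM depleted 1 to 4 (log2 fold change -2.26, SE 0.61, adjusted p = 0.0484). Erap1, the aminopeptidase that trims peptides before they are loaded, had a log2 fold change of -1.30 (adjusted p = 0.0476). Calls were lost when single libraries were left out: the adjusted p of H2-M3 was 0.054 without Control 3. That of H2-D1 was 0.063 to 0.136 without TAM depleted 1, TAM depleted 2, Control 2, Control 3, TAM depleted 3, Control 4 or TAM depleted 4. That of Erap1 was 0.0562 to 0.127 without TAM depleted 1, TAM depleted 2, Control 1, Control 2, Control 3, TAM depleted 3 or Control 4. That of H2-Eb2 was 0.0583 to 0.136 without TAM depleted 1, TAM depleted 2, Control 1, Control 2, Control 3 or Control 4. The number of class I genes that passed was 1 without TAM depleted 1, TAM depleted 2, Control 2, TAM depleted 3 or Control 4 and 0 without Control 3, and of class II genes 3 without Control 1 and 0 without TAM depleted 1, TAM depleted 2, Control 2, Control 3 or Control 4. Classical class I genes resemble one another closely, so reads may have been split between them by the authors' counting.

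Interferon and NF-kB target genes showed negative fold changes with few or no calls. Of 27 interferon response genes, 24 were below 0 (median -1.07), beside 15721 of all 26463 genes, and none passed. The RNA sensor gene Ddx58 stood at 408, 726, 389.98 and 563 normalized counts in Controls 1 to 4 and 184, 353, 159 and 361 in TAM depleted 1 to 4, without overlap between groups (adjusted p = 0.0784). Without TAM depleted 4, 4 of the 27 passed, and without Control 1, 3 passed. Of 15 inflammatory NF-kB genes, 14 were below 0 and 1 passed: Birc3, an inhibitor of apoptosis induced by NF-kB (-1.37, adjusted p = 0.0399). Il1b, the inflammatory cytokine of myeloid cells, had a log2 fold change of -2.53 with no overlap (adjusted p = 0.0603). With 1 library left out, the adjusted p of Birc3 was 0.0522 to 0.116 without TAM depleted 1, TAM depleted 2, Control 1, Control 2, Control 3, TAM depleted 3 or Control 4.

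**Figure D2:**
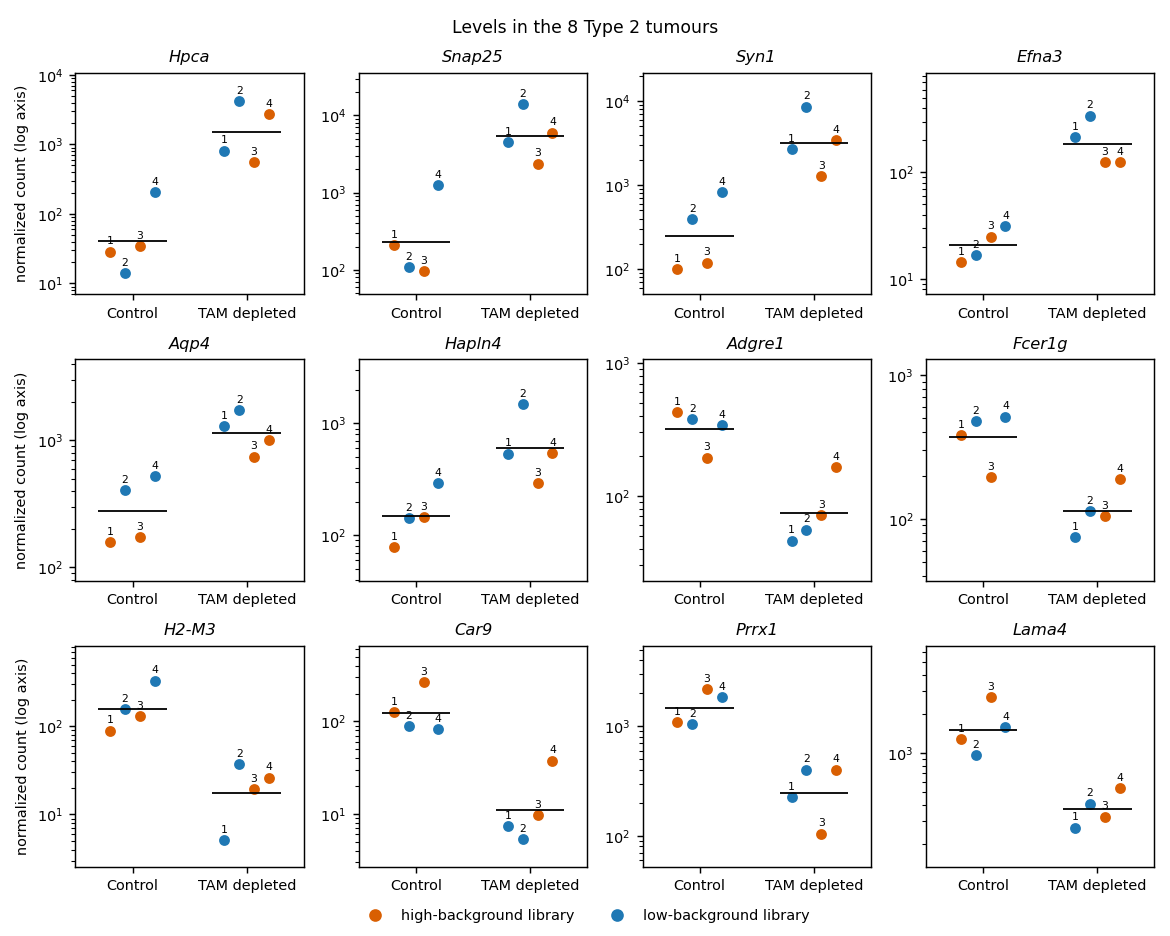
Normalized counts (log axes) of 12 genes in the 8 Type 2 tumours; each point is 1 tumour with its replicate number, orange for high-background and blue for low-background libraries, and the bar is the geometric mean of 4. The groups overlap in none of the 12 panels, and they come closest in Hapln4, where Control 4 is at 291 and TAM depleted 3 at 294.

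Of all lists, those of neurons and excitatory neurons had the highest median log2 fold changes. Neurons carry signals by ion channels, release transmitter from synaptic vesicles and receive it at postsynaptic receptors, and glioblastomas grow among them. The log2 fold change was above 0 in all 15 genes of the neuron list, 8 passed (2.37% of all genes did), and 10 did not overlap (3.86% of all genes). Their median was 3.30. Snap25, part of the membrane fusion machinery of synaptic vesicles (chr2:136713453-136782428), stood at 207, 109, 96.2 and 1253 normalized counts in Controls 1 to 4 and 4529, 14105, 2372 and 5992 in TAM depleted 1 to 4. Control 4 was the highest control and TAM depleted 2 the highest of all, and the groups did not overlap (log2 fold change 4.58, SE 0.75, adjusted p = 0.00932). Rbfox3, the splicing factor known as NeuN that marks the nuclei of mature neurons (chr11:118489762-118911597), stood at 57.2, 58.4, 146 and 316 normalized counts in Controls 1 to 4 and 839, 2908, 524 and 1165 in TAM depleted 1 to 4, again with no overlap (log2 fold change 3.30, SE 0.53, adjusted p = 0.00932). Syp, the vesicle membrane protein synaptophysin, had Control 4 as its highest control and TAM depleted 2 as its highest library, with 75.1, 100.2, 73.0 and 439 normalized counts in Controls 1 to 4 and 1096, 4076, 688 and 1231 in TAM depleted 1 to 4 (log2 fold change 3.47, SE 0.56, adjusted p = 0.00932). These 3 passed in every fit that left out 1 library. The number of neuron genes that passed was 5 without TAM depleted 1 or Control 1 and 3 without TAM depleted 2 or Control 3.

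The neuron list stood apart in Control 4, whose mean log2 level was nearer to that of TAM depleted 3 than to those of the other controls. The level was 7.17, 7.30, 7.22 and 9.35 in Controls 1 to 4 and 10.5, 12.2, 9.97 and 10.4 in TAM depleted 1 to 4. Summed over the list, expression was 3478 to 15575 normalized counts in controls and 26912 to 104460 after depletion, and no member was at 0 in any library. The median log2 fold change was 3.08 within the high-background and 3.33 within the low-background libraries. The neuron list moved with the same contrast as every fall described here, and its part in those falls was not tested.

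Synaptic genes gave many of the rises. All 16 synaptic vesicle release genes were above 0 and 12 passed, beside 2.37% of all genes, with a median log2 fold change of 2.78. Cplx1, a complexin that clamps and triggers vesicle fusion, stood at 39.3, 148, 41.8 and 386 normalized counts in Controls 1 to 4 and 1087, 4082, 908 and 957 in TAM depleted 1 to 4. The groups did not overlap and TAM depleted 2 was far above the other depleted tumours (log2 fold change 3.81, SE 0.60, adjusted p = 0.00917). Rab3a, the vesicle GTPase that takes part in docking, rose by 3.03 on the log2 scale (adjusted p = 0.0107), and both genes passed in every fit that left out 1 library. Bsn, the active zone scaffold bassoon, rose by 3.86 and Cplx2, the second complexin, by 3.73 on the log2 scale (adjusted p = 0.0154 and 0.0176). On the receiving side, all 12 postsynaptic scaffold genes were above 0 and 6 passed. Dlgap3, a scaffold of excitatory synapses, rose by 3.23 and Shank2, a master scaffold beneath glutamate receptors, by 2.75 (adjusted p = 0.0125 and 0.0204). Leaving out single libraries, the adjusted p of Bsn was 0.0584 without Control 3. That of Cplx2 was 0.0522 without TAM depleted 2 and 0.064 without Control 3. That of Dlgap3 was 0.0536 without Control 3. That of Shank2 was 0.0566 without TAM depleted 2 and 0.0701 without Control 3. The number that passed was 7 without TAM depleted 1 or Control 1, 3 without TAM depleted 2 and 2 without Control 3 for the vesicle list, and 2 without TAM depleted 1 or Control 1, 1 without TAM depleted 2 and 0 without Control 3 for the scaffold list.

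Receptors of the 2 main transmitters were among the rises. Of 12 glutamate receptor genes 11 were above 0 and 3 passed. Grin1, the obligatory subunit of NMDA receptors, stood at 64.3, 15.6, 110.4 and 413 normalized counts in Controls 1 to 4 and 829.98, 3113, 426 and 1295 in TAM depleted 1 to 4 (log2 fold change 3.70, SE 0.79, adjusted p = 0.0217). Its lowest depleted tumour, TAM depleted 3, was just above Control 4. Grin2b, an NMDA subunit, rose by 3.70, and Grm3, a metabotropic receptor also made by astrocytes, by 2.21 (adjusted p = 0.0399 and 0.046). Gria2, the subunit that makes AMPA receptors impermeable to calcium, had 2.39 with no overlap and did not pass (adjusted p = 0.0554). All 11 GABA receptor genes were above 0 and 5 passed, beside 2.37% of all genes. Among the 5 was Gabbr2, a subunit of the metabotropic receptor (3.15, adjusted p = 0.0154). In fits that left out 1 library, the adjusted p of Grin1 was 0.0694 without TAM depleted 2 and 0.0626 without Control 3. That of Grin2b was 0.0609 to 0.137 without TAM depleted 1, TAM depleted 2, Control 1, Control 2, Control 3 or TAM depleted 4. That of Grm3 was 0.0539 to 0.162 without TAM depleted 1, TAM depleted 2, Control 1, Control 3, Control 4 or TAM depleted 4. That of Gabbr2 was 0.0594 without Control 3. The number that passed was 1 without TAM depleted 1, Control 1 or TAM depleted 4 and 0 without TAM depleted 2 or Control 3 for glutamate receptors, and 3 without Control 1, Control 2 or TAM depleted 4, 1 without TAM depleted 1 or TAM depleted 2 and 0 without Control 3 for GABA receptors.

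Ion channels and calcium sensors of neurons were also among the rises. All 16 ion channel genes were above 0 and 11 passed, beside 2.37% of all genes, with a median of 2.42. Kcnc1, a fast potassium channel, stood at 100.1, 100.2, 108 and 377 normalized counts in Controls 1 to 4 and 745, 2597, 687 and 675 in TAM depleted 1 to 4, and TAM depleted 2 was the highest of all (log2 fold change 2.77, SE 0.54, adjusted p = 0.0162). Scn2a, a sodium channel of axons, rose by 2.58 and Cacna1b, the N-type calcium channel of nerve terminals, by 2.18 on the log2 scale (adjusted p = 0.0237 and 0.0168). All 12 calcium sensors and kinases were above 0 and 8 passed. Hpca, the calcium sensor hippocalcin (chr4:129111570-129122036), had the largest rise of any gene and stood at 28.6, 13.9, 34.7 and 205 normalized counts in Controls 1 to 4 and 813, 4219.7, 555 and 2693 in TAM depleted 1 to 4. Controls 1 to 3 were low, and every depleted tumour was above Control 4 (log2 fold change 5.15, SE 0.77, adjusted p = 0.00917). Camk2b, a subunit of the calcium-dependent kinase of synapses, rose by 3.42 (adjusted p = 0.0114), and it and Hpca passed in every fit that left out 1 library. On removal of 1 library, the adjusted p of Scn2a was 0.0515 to 0.0874 without TAM depleted 1, TAM depleted 2 or Control 3. That of Cacna1b was 0.0605 without Control 3. That of Kcnc1 was 0.0605 without Control 3. The number that passed was 6 without Control 2, 5 without Control 1, 3 without TAM depleted 1 or TAM depleted 2 and 1 without Control 3 for ion channels, and 4 without Control 1 and 2 without TAM depleted 2 or Control 3 for calcium sensors and kinases.

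Among neuron types, excitatory neuron genes gave 6 calls in 12 genes, all above 0. Slc17a7, the vesicular glutamate transporter of cortical neurons (chr7:45163949-45176142), stood at 100.1, 47.9, 137 and 47.6 normalized counts in Controls 1 to 4 and 3392, 10668, 332 and 3304 in TAM depleted 1 to 4, and TAM depleted 3 was the lowest depleted tumour (log2 fold change 5.05, SE 1.03, adjusted p = 0.0186). Tbr1, a transcription factor of deep cortical layers, stood at 50.04, 19.5, 50.8 and 39.1 normalized counts in Controls 1 to 4 and 292, 1254, 106 and 595 in TAM depleted 1 to 4 with no overlap (log2 fold change 3.35, SE 0.63, adjusted p = 0.0137) and passed in every fit that left out 1 library. Of 12 inhibitory neuron genes, all above 0, 2 passed: Gad1, the enzyme that makes GABA (3.44, adjusted p = 0.0431), and Npy, the neuropeptide Y gene (2.90, adjusted p = 0.0487). Of 10 striatal neuron genes, 1 passed, the phosphodiesterase Pde10a (1.58, adjusted p = 0.0371), and of 8 cerebellar granule neuron genes none did. Of these 8 genes, 5 were above and 3 below 0, with a median log2 fold change of 0.23. Calls were lost when single libraries were left out: the adjusted p of Slc17a7 was 0.0501 to 0.0583 without TAM depleted 1, TAM depleted 2 or Control 3. That of Gad1 was 0.077 to 0.14 without TAM depleted 1, TAM depleted 2, Control 1, Control 2 or Control 3. That of Npy was 0.0686 to 0.165 without TAM depleted 1, TAM depleted 2, Control 1, Control 2, Control 3, Control 4 or TAM depleted 4. That of Pde10a was 0.0672 to 0.102 without TAM depleted 1, TAM depleted 2, Control 1, Control 3 or TAM depleted 4. The number of excitatory genes that passed was 3 without Control 1 and 1 without TAM depleted 1, TAM depleted 2 or Control 3. Calls among inhibitory neuron genes numbered 5 without Control 4, 1 without TAM depleted 4 and 0 without TAM depleted 1, TAM depleted 2, Control 1, Control 2 or Control 3, and among striatal neuron genes 3 without TAM depleted 3 and 0 without TAM depleted 1, TAM depleted 2, Control 1, Control 3 or TAM depleted 4. The lists were not tested against each other.

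Peptides of neurons and genes switched on by their activity were described by separate lists. All 13 neuropeptide and granin genes were above 0 and 4 passed. Cck, the neuropeptide cholecystokinin, stood at 14.3, 8.35, 14.2 and 20.4 normalized counts in Controls 1 to 4 and 398, 1858, 116 and 547 in TAM depleted 1 to 4, without overlap (log2 fold change 4.99, SE 1.02, adjusted p = 0.0188). Chgb, a granin that packages peptides into dense-core vesicles, rose by 3.68 (adjusted p = 0.0145). The immediate early genes Arc and Egr1, which are switched on by neuronal activity and by tissue handling, did not pass (2.52 and 1.73, adjusted p = 0.0982 and 0.146). Ier3, an early response gene induced by NF-kB, passed in the other direction: it stood at 268, 455, 372 and 632 normalized counts in Controls 1 to 4 and 143, 96.9, 46.4 and 54.1 in TAM depleted 1 to 4, with every control above every depleted tumour (log2 fold change -2.41, SE 0.46, adjusted p = 0.0154). With 1 library left out, the adjusted p of Cck was 0.0597 without TAM depleted 2 and 0.0624 without Control 3. That of Chgb was 0.0506 without Control 3. That of Ier3 was 0.0522 without Control 3. The number of neuropeptide and granin genes that passed was 2 without TAM depleted 1 or Control 2, 1 without TAM depleted 2 and 0 without Control 3.

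Many neuronal genes carry a binding element for REST, a repressor that keeps them silent outside neurons. The core TTCAGCACC was searched on both strands in the 250 bases before the start site of RefSeq promoters (GRCm38.p6), which were matched by symbol for 16385 of the 26463 genes tested. It stood in 60 of these 16385 (0.366%), in 5 of 464 matched promoters of genes that rose (1.08%) and in 0 of 236 of genes that fell. The 5 that rose were Ppfia3, Celsr3, Osbp2, Nsg2 and Syn1. By list, the core stood in 1 of 9 matched promoters of neuron genes and 1 of 17 of TAM genes. It stood in 0 of 13 of vesicle release genes and 0 of 10 of ion channel genes. Syn1, the vesicle phosphoprotein synapsin 1, is shown because its promoter holds the core (chrX:20920919-20921168, minus strand), in capitals, starting 232 bases before the start site:
Syn1: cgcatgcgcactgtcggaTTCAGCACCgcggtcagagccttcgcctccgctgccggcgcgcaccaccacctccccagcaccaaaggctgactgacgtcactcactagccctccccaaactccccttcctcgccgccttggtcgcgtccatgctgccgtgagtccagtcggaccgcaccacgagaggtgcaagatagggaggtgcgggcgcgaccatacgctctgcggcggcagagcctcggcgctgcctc
Syn1 stood at 100.1, 396, 119 and 831 normalized counts in Controls 1 to 4 and 2710.1, 8607, 1269.5 and 3462 in TAM depleted 1 to 4, and every depleted tumour lay above every control (log2 fold change 3.66, SE 0.73, adjusted p = 0.0176). Leaving out single libraries, the adjusted p of Syn1 was 0.0522 without TAM depleted 2 and 0.0662 without Control 3. Rest itself went from a mean of 553 to 301 normalized counts (log2 fold change -0.93, adjusted p = 0.156). A match of these letters is a description and not a measured binding site.

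Among glial genes, 2 astrocyte genes rose and no oligodendrocyte gene passed. Astrocytes supply and buffer neurons, and oligodendrocytes wrap axons in myelin. Of 12 astrocyte genes 11 were above 0 (median 1.51) and 2 passed. Aqp4, the water channel of astrocyte endfeet, stood at 157, 408, 172 and 526 normalized counts in Controls 1 to 4 and 1292, 1741, 745 and 1001 in TAM depleted 1 to 4, with no overlap (log2 fold change 2.04, SE 0.51, adjusted p = 0.0387). Ntsr2, a neurotensin receptor of astrocytes, rose by 2.18 (adjusted p = 0.0342). All 11 oligodendrocyte genes were above 0 (median 1.18), and none passed. Mobp, a myelin protein, stood at 42.9, 14.5, 299 and 1210.3 normalized counts in Controls 1 to 4 and 1389, 4530.02, 1524 and 2775 in TAM depleted 1 to 4. The groups did not overlap and Control 4 lay close to the depleted tumours (log2 fold change 4.18, adjusted p = 0.0604). In fits that left out 1 library, the adjusted p of Aqp4 was 0.0911 to 0.126 without TAM depleted 1, TAM depleted 2, Control 1 or Control 3. That of Ntsr2 was 0.0714 to 0.119 without TAM depleted 1, TAM depleted 2, Control 1 or Control 3. The number of astrocyte genes that passed was 0 without TAM depleted 1, TAM depleted 2, Control 1 or Control 3.

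Genes of glial precursors, which glioma cells also express, showed no shared direction. Of 10 oligodendrocyte precursor genes, 4 were above and 6 below 0, and 1 passed. Sox10, the transcription factor of the oligodendrocyte lineage, fell: it stood at 2988, 1727, 3367 and 4847 normalized counts in Controls 1 to 4 and 855, 1351, 351 and 779 in TAM depleted 1 to 4, and every control lay above every depleted tumour (log2 fold change -2.01, SE 0.52, adjusted p = 0.0424). Pdgfra, the growth factor receptor of precursors and a glioma oncogene, had a log2 fold change of -0.99 (adjusted p = 0.402). The precursor median was 0.47 within the high-background and -1.03 within the low-background libraries, so its sign differed between the sets. Of 10 neural stem cell genes none passed. On removal of 1 library, the adjusted p of Sox10 was 0.0544 to 0.115 without TAM depleted 1, TAM depleted 2, Control 1, Control 3, TAM depleted 3, Control 4 or TAM depleted 4.

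**Figure D3:**
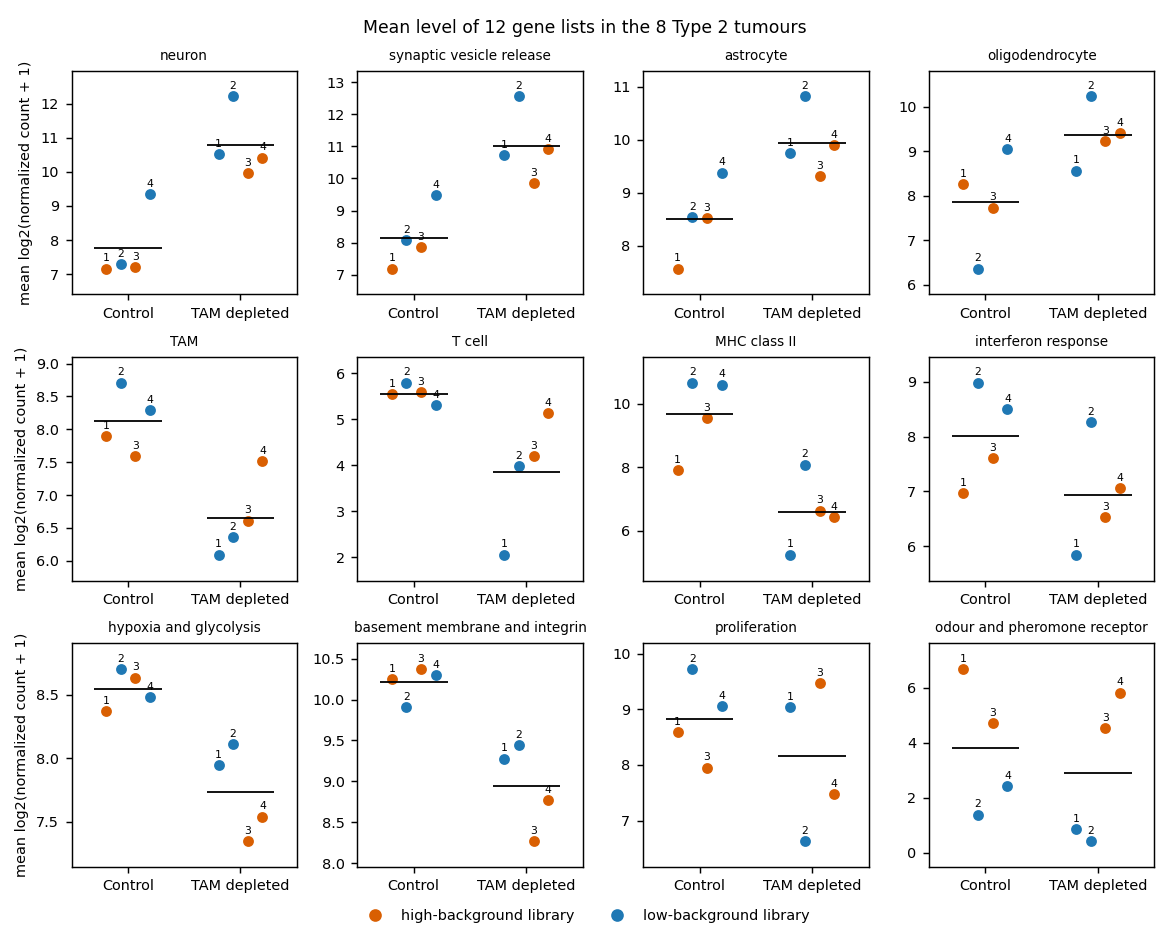
Mean log2(normalized count + 1) of 12 gene lists in each of the 8 Type 2 tumours, with replicate numbers, orange for high-background and blue for low-background libraries, and bars at the mean of 4. In the neuron panel Control 4 at 9.35 lies far above the other 3 controls, and in the odour and pheromone receptor panel the orange points lie above the blue ones in both groups.

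Genes induced by low oxygen fell in part. In hypoxia the HIF factors bind the core ACGTG and raise genes of pH control, glycolysis and vessel growth. Of 18 hypoxia and glycolysis genes, 13 had a log2 fold change below 0 and 4 passed, all lower, beside 1.24% of all genes. Car9, a carbonic anhydrase at the cell surface and a common hypoxia marker (chr4:43506966-43513729), Ankrd37, an ankyrin repeat protein, and Egln3, an oxygen-sensing prolyl hydroxylase, are shown with their promoters because they fell together. The core is in capitals wherever it stands on either strand (as ACGTG or CACGT), 18 bases before the start site in Car9, 241 and 6 in Ankrd37 and 229 in Egln3 (RefSeq, GRCm38.p6: Car9 chr4:43506776-43507025, plus strand; Ankrd37 chr8:45999851-46000100, minus strand; Egln3 chr12:54203875-54204124, minus strand):
Car9: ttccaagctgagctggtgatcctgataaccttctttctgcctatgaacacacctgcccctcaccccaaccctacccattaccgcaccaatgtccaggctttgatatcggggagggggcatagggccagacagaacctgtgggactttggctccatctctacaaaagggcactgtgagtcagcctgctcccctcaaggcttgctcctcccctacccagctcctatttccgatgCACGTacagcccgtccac
Ankrd37: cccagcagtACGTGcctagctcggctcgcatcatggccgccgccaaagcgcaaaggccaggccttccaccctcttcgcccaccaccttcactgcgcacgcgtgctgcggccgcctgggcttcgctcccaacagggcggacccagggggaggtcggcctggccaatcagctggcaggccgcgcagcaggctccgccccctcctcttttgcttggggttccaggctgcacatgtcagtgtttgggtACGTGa
Egln3: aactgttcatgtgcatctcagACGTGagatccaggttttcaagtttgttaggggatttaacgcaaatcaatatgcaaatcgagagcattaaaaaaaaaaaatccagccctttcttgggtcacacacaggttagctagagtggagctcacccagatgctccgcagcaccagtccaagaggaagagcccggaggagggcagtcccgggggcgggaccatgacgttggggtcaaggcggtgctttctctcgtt
The core, which also lies within the E-box CACGTG, was found in 13 of 16 matched promoters of the list and in 3536 of 16385 promoters of all genes tested (21.6%). The list was made up of hypoxia and glycolysis genes, so its share is no result of these data. The core was also in 5 of 13 matched promoters of the vesicle release list. It stood in 55 of 236 promoters of the genes that fell (23.3%) and in 114 of 464 of those that rose (24.6%), both near the share of all genes.

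Car9 stood at 125, 89.0, 264 and 82.7 normalized counts in Controls 1 to 4 and 7.40, 5.38, 9.71 and 37.7 in TAM depleted 1 to 4. Every control lay above every depleted tumour, and TAM depleted 4 was the highest of these (log2 fold change -3.37, SE 0.75, adjusted p = 0.0244). Ankrd37 stood at 71.5, 47.9, 50.8 and 29.5 normalized counts in Controls 1 to 4 and 15.9, 18.5, 14.0 and 4.92 in TAM depleted 1 to 4, low counts with no overlap (log2 fold change -1.89, adjusted p = 0.031). Egln3 was even among the controls, at 265, 299.9, 248 and 290.1 normalized counts in Controls 1 to 4 and 122, 80.1, 57.2 and 63.9 in TAM depleted 1 to 4 (log2 fold change -1.81, SE 0.44, adjusted p = 0.0335). Vegfa, the main growth factor for vessels and a HIF target, stood at 1852, 1999, 2592 and 2563 normalized counts in Controls 1 to 4 and 874, 879.6, 648 and 502 in TAM depleted 1 to 4. Controls and depleted tumours were far apart (log2 fold change -1.65, SE 0.42, adjusted p = 0.0414). Angpt2, a ligand that loosens vessels, also fell (-1.61, adjusted p = 0.0264). Calls were lost when single libraries were left out: the adjusted p of Car9 was 0.0673 to 0.0904 without TAM depleted 1, TAM depleted 2 or Control 3. That of Ankrd37 was 0.0522 to 0.0904 without TAM depleted 1, TAM depleted 2, Control 1 or Control 3. That of Egln3 was 0.0537 to 0.0854 without TAM depleted 2, Control 1, Control 3, TAM depleted 3, Control 4 or TAM depleted 4. That of Vegfa was 0.0593 to 0.117 without TAM depleted 1, TAM depleted 2, Control 1, Control 3, TAM depleted 3, Control 4 or TAM depleted 4. That of Angpt2 was 0.0804 without TAM depleted 2 and 0.0908 without Control 3. The number of hypoxia genes that passed was 2 without TAM depleted 2, Control 1, TAM depleted 3, Control 4 or TAM depleted 4, 1 without TAM depleted 1 and 0 without Control 3, and the median of the list was -0.44. Of 10 endothelial genes none passed (median -0.07). Kdr, the VEGF receptor of vessels, had -0.86 with no overlap (adjusted p = 0.0548).

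Several basement membrane and matrix genes fell. All 12 basement membrane and integrin genes were below 0 (median -1.16), 3 passed and 6 did not overlap, beside 1.24% and 3.39% of all genes. Lama4, the laminin chain of vessel basement membranes (chr10:38965515-39110188), stood at 1283, 967, 2692 and 1579 normalized counts in Controls 1 to 4 and 267, 408, 325 and 536 in TAM depleted 1 to 4. The groups were well apart, and Control 3 was the highest (log2 fold change -2.03, SE 0.32, adjusted p = 0.00917). Itga1, the collagen-binding integrin alpha 1, which is not on that list, stood at 940.1, 666, 1809 and 1682 normalized counts in Controls 1 to 4 and 216, 363, 208 and 354 in TAM depleted 1 to 4 (log2 fold change -2.09, SE 0.33, adjusted p = 0.00917), and both genes passed in every fit that left out 1 library. Col4a1, a chain of basement membrane collagen, and Hspg2, the proteoglycan perlecan, fell as well (-1.37 and -1.89, adjusted p = 0.0432 and 0.0486). Postn, the matricellular protein periostin, was the 1 of 13 fibroblast matrix genes that passed (-2.24, adjusted p = 0.0231). Mmp2, the gelatinase, was the 1 of 13 matrix proteases (-2.14, adjusted p = 0.0342). With 1 library left out, the adjusted p of Col4a1 was 0.0585 to 0.114 without TAM depleted 1, Control 1, Control 3, TAM depleted 3, Control 4 or TAM depleted 4. That of Hspg2 was 0.0614 to 0.16 without TAM depleted 1, Control 1, Control 2, Control 3, TAM depleted 3 or TAM depleted 4. That of Postn was 0.0609 without TAM depleted 1 and 0.0757 without Control 3. That of Mmp2 was 0.0609 to 0.0915 without TAM depleted 2, Control 1, Control 2, Control 3, TAM depleted 3 or TAM depleted 4. The number of basement membrane genes that passed was 1 without TAM depleted 1, Control 1, Control 3, TAM depleted 3 or TAM depleted 4.

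Genes of the hyaluronan matrix passed in both directions, 3 of 10 as lower and 1 as higher. This matrix is built from hyaluronan, the lectican proteoglycans and link proteins, and forms nets around some neurons. Acan, the lectican aggrecan (chr7:79053483-79115099), stood at 990.2, 5753, 14857 and 860.1 normalized counts in Controls 1 to 4 and 682, 521, 57.2 and 234 in TAM depleted 1 to 4. Control 3 held by far the most, and Control 4, the lowest control, lay near TAM depleted 1 (log2 fold change -3.47, SE 0.81, adjusted p = 0.0291). Hapln1, a link protein, fell by 2.96 and Has2, a hyaluronan synthase, fell by 2.14 on the log2 scale (adjusted p = 0.0446 and 0.0187). Hapln4, the link protein of nets around neurons in the brain, rose: it stood at 78.6, 142, 144 and 291 normalized counts in Controls 1 to 4 and 537, 1496, 294 and 543 in TAM depleted 1 to 4 (log2 fold change 2.02, SE 0.44, adjusted p = 0.0231). Leaving out single libraries, the adjusted p of Acan was 0.0937 without Control 3 and 0.0559 without TAM depleted 3. That of Hapln1 was 0.0665 to 0.154 without TAM depleted 1, TAM depleted 2, Control 2, Control 3 or TAM depleted 3. That of Has2 was 0.0563 without TAM depleted 2 and 0.064 without Control 3. That of Hapln4 was 0.0505 to 0.072 without TAM depleted 1, TAM depleted 2, Control 1 or Control 3. The falls in this list numbered 1 without TAM depleted 2 or TAM depleted 3 and 0 without Control 3.

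Mesenchymal and growth factor genes included further falls. The mesenchymal list holds genes of the glioblastoma state that resembles connective tissue. Of its 16 genes tested 15 were below 0 and 2 passed, the membrane-binding protein Anxa2 (-1.61, adjusted p = 0.0292) and the transcription factor Runx1 (-1.53, adjusted p = 0.0496). Prrx1, a transcription factor of mesenchymal cells outside the list (chr1:163245119-163313710), stood at 1090.2, 1054, 2181 and 1846 normalized counts in Controls 1 to 4 and 225, 402, 105 and 402 in TAM depleted 1 to 4. It had one of the smallest p among the falls and passed in every fit that left out 1 library (log2 fold change -2.56, SE 0.39, adjusted p = 0.00917). Erbb3, a receptor of neuregulins, stood at 865, 757, 2838 and 3298 normalized counts in Controls 1 to 4 and 225, 884, 64.7 and 299.9 in TAM depleted 1 to 4, and TAM depleted 2 overlapped the controls (log2 fold change -2.65, SE 0.64, adjusted p = 0.033). Its partner Erbb2 fell by 1.31 (adjusted p = 0.0431), and Tgfbr2, the TGF-beta receptor, fell by 1.42 on the log2 scale (adjusted p = 0.0188). Egfr, the epidermal growth factor receptor, was uneven within both groups, at 322, 1229.8, 172 and 169 normalized counts in Controls 1 to 4 and 1731, 549, 1769.97 and 444 in TAM depleted 1 to 4 (log2 fold change 1.502, adjusted p = 0.301). In fits that left out 1 library, the adjusted p of Anxa2 was 0.0522 to 0.0919 without TAM depleted 1, TAM depleted 2, Control 1, Control 3 or TAM depleted 3. That of Runx1 was 0.0595 to 0.155 without TAM depleted 1, TAM depleted 2, Control 2, Control 3, TAM depleted 3 or Control 4. That of Erbb3 was 0.0616 to 0.114 without TAM depleted 1, Control 3, TAM depleted 3 or Control 4. That of Erbb2 was 0.0506 to 0.132 without TAM depleted 1, TAM depleted 2, Control 1, Control 3, TAM depleted 3, Control 4 or TAM depleted 4. That of Tgfbr2 was 0.0679 without Control 3. Calls among mesenchymal genes numbered 1 without Control 1 or Control 4 and 0 without TAM depleted 1, TAM depleted 2, Control 3 or TAM depleted 3.

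Cell cycle genes did not pass. Of 20 proliferation genes 19 were below 0 (median -0.75), and the median was 0.06 within the high-background and -1.64 within the low-background libraries. The mean log2 level was 8.60, 9.73, 7.95 and 9.06 in Controls 1 to 4 and 9.04, 6.64, 9.47 and 7.47 in TAM depleted 1 to 4. TAM depleted 2 and 4 were below every control, while TAM depleted 1 and 3 were within the range of the controls. Of 10 glioma driver genes none passed (median -0.13). The MYC family gene Mycn was uneven after depletion, with 71.5, 43.4, 41.8 and 49.9 normalized counts in Controls 1 to 4 and 108, 103, 99.2 and 465 in TAM depleted 1 to 4 (adjusted p = 0.143). Genes of energy metabolism leaned upward without calls: 80 of 91 oxidative phosphorylation genes and 16 of 16 genes of the mitochondrial genome were above 0 (medians 0.59 and 0.57). Of all 26463 genes tested, 10742 were above and 15721 below 0. The median of 80 ribosomal protein genes was 0.09 and turned to -0.12 under upper quartile scaling, which moved the median of all genes from -0.21 to -0.41.

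Among the genes with the smallest p, several lie outside the lists. Hrk, a BH3-only protein that promotes apoptosis in neurons, had the smallest p of all. It stood at 25.02, 44.5, 77.5 and 32.3 normalized counts in Controls 1 to 4 and 232, 536, 237 and 379 in TAM depleted 1 to 4, with no overlap (log2 fold change 2.96, SE 0.36, adjusted p = 0.00755). Efna3, an ephrin ligand of axon guidance, stood at 14.3, 16.7, 24.9 and 31.2 normalized counts in Controls 1 to 4 and 213, 341, 125 and 125 in TAM depleted 1 to 4 (log2 fold change 3.08, SE 0.40, adjusted p = 0.00917). Kif5c, a kinesin heavy chain of axonal transport, and Ppp2r2c, a regulatory subunit of phosphatase 2A made in brain, rose by 3.00 and 3.98 (adjusted p = 0.00917 and 0.00917). Nckap1l, a regulator of actin in blood cells known as HEM1, stood at 439.7, 561, 414 and 443 normalized counts in Controls 1 to 4 and 119, 125, 131 and 252 in TAM depleted 1 to 4, and the controls varied little (log2 fold change -1.63, SE 0.26, adjusted p = 0.00917). Swap70, an actin regulator of B cells and myeloid cells, and Lpcat2, an enzyme of platelet-activating factor synthesis in inflammatory cells, fell (-1.71 and -2.36, adjusted p = 0.00917 and 0.00917). All 7 passed in every fit that left out 1 library.

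**Figure D4:**
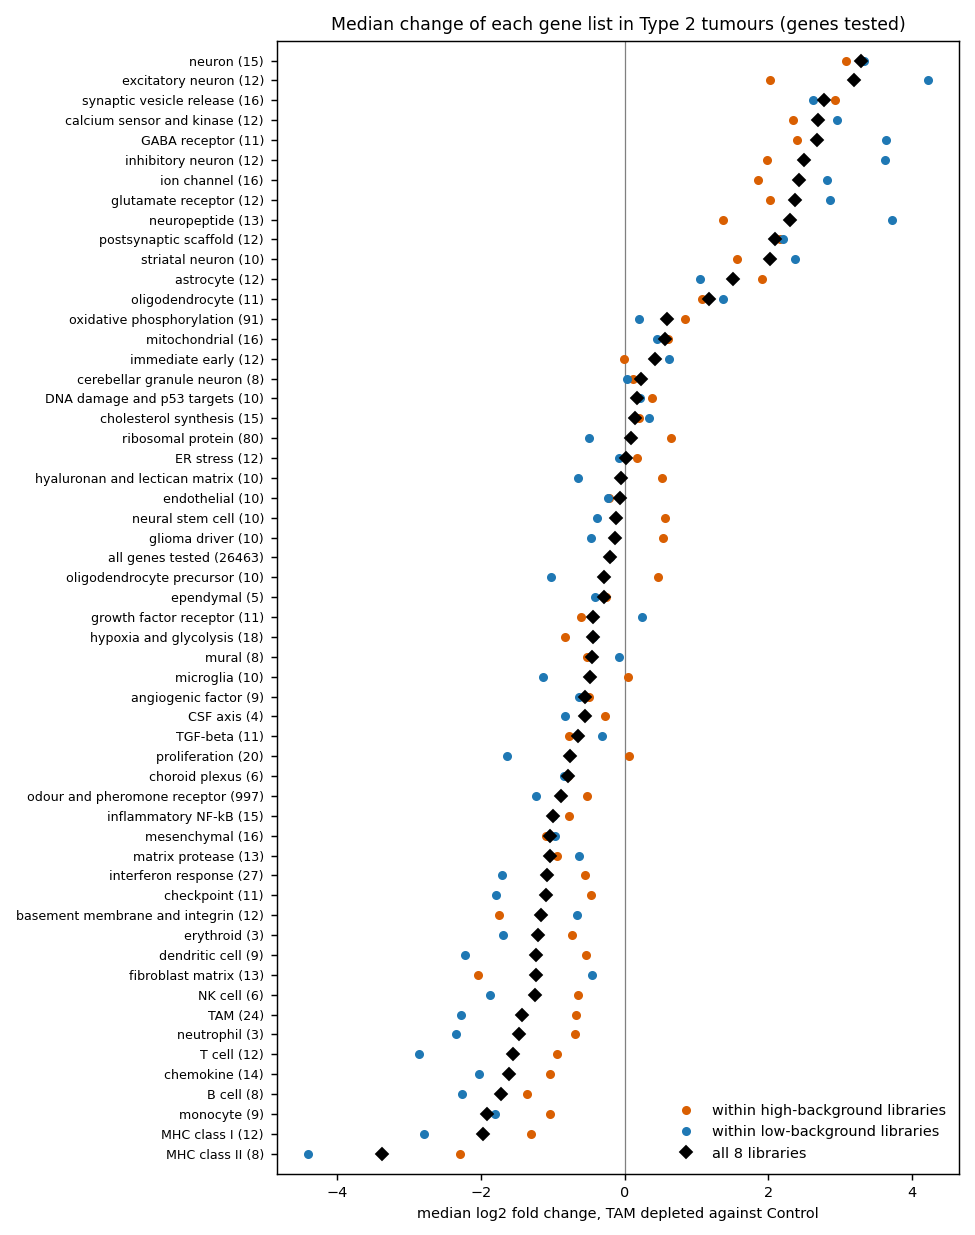
Median log2 fold change of each gene list, TAM depleted against Control, over all 8 libraries (black diamonds), within the high-background libraries (orange) and within the low-background libraries (blue), with the number of genes tested in brackets. Apart from the cerebellar granule neuron list, which lies near 0 (0.23, 0.12 and 0.03), neuronal and synaptic lists lie to the right in all 3. The MHC class II and class I lists lie to the left, and the proliferation median is 0.06 in 1 set and -1.64 in the other.

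The Y-linked falls followed the reads given above. Eif2s3y, a translation factor gene of the Y chromosome, stood at 25.02, 52.9, 35.6 and 94.6 normalized counts in Controls 1 to 4 and 1.14, 0, 0 and 0 in TAM depleted 1 to 4 (adjusted p = 0.013). Ddx3y, Kdm5d and Uty passed with adjusted p = 0.0158, 0.0188 and 0.0154, and in each of the 3 TAM depleted 1 held the highest level of the depleted tumours. On removal of 1 library, the adjusted p of Ddx3y was 0.0536 without Control 3. That of Kdm5d was 0.0563 without TAM depleted 2 and 0.0588 without Control 3. That of Uty was 0.0506 without Control 3. Xist, at 9476, 29691, 6932 and 7799 normalized counts in Controls 1 to 4 and 23742, 11826, 2979 and 7597 in TAM depleted 1 to 4, did not pass (adjusted p = 0.803).

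Calls were unevenly spread over chromosomes, and so were the levels of whole chromosomes in single tumours. Of 1025 genes tested on chromosome 15, 42 fell (4.1%), beside 1.24% of all genes, and of 1917 on chromosome 2, 85 rose (4.43%), beside 2.37%. For each library and chromosome, the median deviation from the mean of the 8 libraries was taken over genes with a mean normalized count of 200 or more. Control 3 stood at 0.55 on chromosome 15 and -0.55 on chromosome 18, Control 4 at 0.45 on chromosome 8, and Control 1 at -0.44 on chromosome 19 (log2). The largest of these deviations lay in controls. The 2 groups did not overlap on chromosomes 2 and 19, where the depleted tumours were higher by 0.18 and 0.28. The group means differed most on chromosomes 15 and 8 (depleted minus control, -0.34 and -0.31), where the groups overlapped. Whether these offsets are gains or losses of DNA was not tested, nor was their part in the calls.

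**Figure D5:**
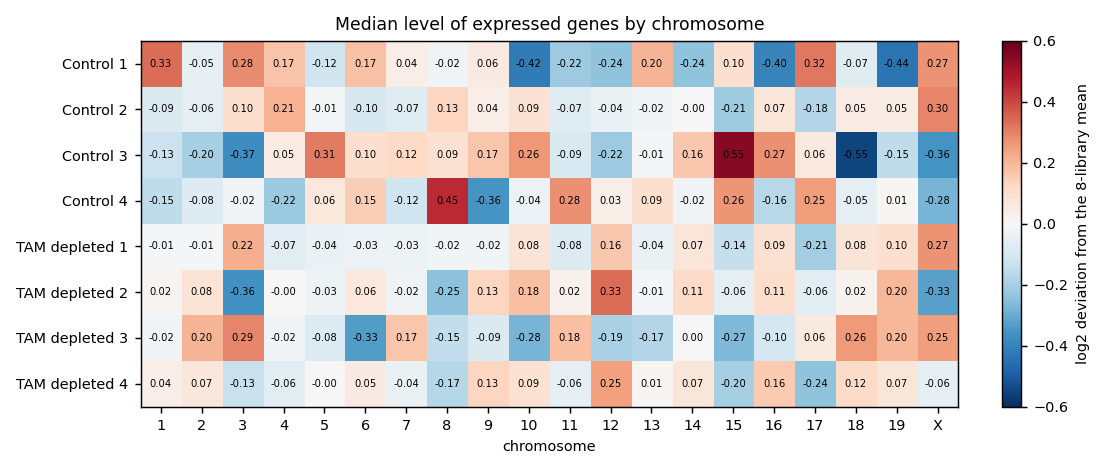
Median log2 deviation from the 8-library mean of genes with a mean normalized count of 200 or more, by chromosome (columns) and Type 2 tumour (rows), red for higher and blue for lower. Control 3 is red on chromosome 15 (0.55) and blue on chromosome 18 (-0.55), while TAM depleted 4 stays between -0.24 and 0.25.

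Beside the Type 1 tumours, the same lists had other values, and the difference of the 2 responses passed for 0 of 26463 genes (limma-trend, 2666 at an unadjusted p under 0.05; limma-voom, 0 and 3171). Type 1 depletion on its own passed 0 genes (8019 at an unadjusted p under 0.05 by limma-trend; limma-voom, 0 and 7556). The neuron list had a median log2 fold change of 0.51 in Type 1 and 3.30 in Type 2, and the MHC class I list 0.31 and -1.97. The hypoxia list had 0.73 and -0.44, and the TAM list -0.58 and -1.43. The odour and pheromone receptors had -3.63 in Type 1 and -0.88 in Type 2. In Type 1 the background sets followed treatment, so its values cannot be told apart from a difference in background. Of the genes that rose in Type 2, 594 of 627 had a fold change above 0 in Type 1, with a median of 0.53, and of those that fell, 247 of 329 were below 0, with a median of -0.55. The sign was shared by 18664 of the 26463 genes tested. No gene was thus shown to respond differently in the 2 kinds of tumour.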

How the data were processed

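RNA of 16 tumours was sequenced. The submitters' processing notes name STAR 2.7.8a, GRCm38 and DESeq2, while neither the counting tool nor the annotation was given in the sources consulted. The authors deposited log2 values, which proved to be variance-stabilized, where the planned design had assumed linear normalized counts. They were inverted from each table's lowest value (3.74 for the 16 libraries) to normalized counts. All values were whole multiples of 1 read per library (tolerance 0.05 reads), which gave reads and the authors' size factors. A count model was not used.

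Genes with 10 or more normalized counts in 3 or more libraries were tested (26463) with limma-trend (limma 3.58.1, R 4.3.3) on log2(normalized count + 1), as 4 group means over 16 libraries (12 residual degrees of freedom), with Benjamini-Hochberg adjustment. Within each group, every pair of libraries differed by more than sampling noise (the smallest chi-square, divided by its degrees of freedom, was 53.4). Reads carry no molecular identifiers. The fit was tested on simulated data that held no background sets, so that test does not cover the split of these libraries by background.

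Genes named were the 15 largest rises and falls and the 10 smallest p in each direction, taken from calls without overlap between groups whose higher group averaged at least 50, without predicted models. Fixed macrophage markers, Y-linked genes, Xist and, for each list, up to 4 members by smallest p were added. Of these, the text describes a selection, and some list members are not reported here. The groups, gene lists and background sets were chosen with earlier results of these data known. Coordinates are those of GENCODE vM21 (GRCm38). Alternatives were other pseudocounts, filters and scaling, limma-voom, a replicate block, a background block, each background set or the Type 2 libraries alone, and leaving out each library. The fits of Type 2 libraries alone with a background block and with limma-voom were added after seeing the data.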

Additional observations from a re-analysis of the deposited data

Results flagged for a closer look

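Within the 2 groups of 4, a tumour was set apart where its gap to the nearest other, as a share of the range of the group on the log2(normalized count + 1) scale, exceeded the critical value of Dixon's test for 4 values. Of 338 such groups, over the genes printed and the list means, 17 were set apart, and chance gives about 1 in 20. Control 1 was the lowest for Pdgfra at 9.069 (the others 11.1 to 11.48). Control 2 was the lowest for the mean of the ependymal list at 2.533 (the others 4.702 to 4.977). Control 4 was the lowest for Anxa2 at 9.207 (the others 10.14 to 10.21), highest for Kcnc1 at 8.561 (the others 6.659 to 6.765), highest for P2ry12 at 7.711 (the others 6.519 to 6.659), highest for the mean of the microglia list at 7.591 (the others 6.729 to 6.768), highest for the mean of the neuron list at 9.346 (the others 7.168 to 7.296) and the highest for the mean of the calcium sensor and kinase list at 9.13 (the others 7.012 to 7.22). TAM depleted 1 was the highest for Ddx3y at 2.142 (the others 0 to 0) and the highest for Eif2s3y at 1.096 (the others 0 to 0). TAM depleted 2 was the highest for Cplx1 at 11.99 (the others 9.828 to 10.09) and the highest for Kcnc1 at 11.34 (the others 9.401 to 9.543). TAM depleted 3 was the lowest for Npy at 5.428 (the others 8.498 to 9.109). TAM depleted 4 was the highest for C1qa at 8.968 (the others 7.833 to 7.872), highest for Mycn at 8.866 (the others 6.647 to 6.769), highest for Nckap1l at 7.985 (the others 6.906 to 7.039) and the lowest for the mean of the ER stress list at 7.711 (the others 8.693 to 8.745).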

How the results depend on the processing

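Of the settings tried, a fit of the 8 Type 2 libraries alone passed 0 genes, of low-background libraries alone 0, and of Type 2 libraries alone with limma-voom 0. High-background libraries alone passed 580, 134 of them lower, and the background set as a block passed 2635, 1493 higher and 1142 lower. The high-background fit also held the 5 Type 1 Controls and the low-background fit the 3 Type 1 TAM depleted tumours. These Type 1 libraries entered the estimate of the spread. Upper quartile scaling gave 618 lower genes and limma-voom 595. Leaving out 1 library gave 100 to 1258 genes in all, 60 to 862 higher and 40 to 515 lower, fewest without Control 3. The other settings stayed within 1.5 times of 956. With the replicate number as a block (Type 2 libraries) 0 genes passed (2615 at an unadjusted p under 0.05). The correlations of same-numbered libraries were -0.675, 0.495, 0.303 and -0.602, and 0 of 4 depleted libraries correlated best with the control of their own number, so the numbers were not taken as pairs. The cause of these changes was not tested. Library depth of 4.21 to 18.3 M reads limits the genes of low count, the more so where Gm10800 held a large share of the reads. The log2 fold change turned sign in high-background libraries alone for Csf1 (0.0434) and P2ry12 (0.0325), in low-background libraries alone for Xist (0.14), without Control 1 for Il34 (-0.0759), without Control 2 for Xist (0.16), without TAM depleted 3 for Xist (0.21). Over the fits that left out 1 library it ran from -0.08 to 0.92 for Il34 and from -0.79 to 0.21 for Xist. List medians also changed sign between settings: that of odour and pheromone receptors from -0.88 to 0.12 without Control 1, and in high-background libraries alone those of proliferation from -0.75 to 0.06 and of microglia from -0.48 to 0.05. Medians closer to 0 that turned included those of the oligodendrocyte precursor, neural stem cell, glioma driver and ER stress lists.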

Other observations

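The genes in these 2 paragraphs were chosen after their values were seen, from the 90 that passed in every fit that left out 1 library, and their adjusted p are from limma-trend. Among those outside the lists that fell were genes that blood cells express. Tnfsf13b, the B cell survival factor BAFF that myeloid cells release, stood at 239, 189, 238 and 256 normalized counts in Controls 1 to 4 and 29.0, 41.9, 84.1 and 99.98 in TAM depleted 1 to 4 (log2 fold change -1.995, SE 0.34, adjusted p = 0.0107). Tlr1, a receptor for bacterial lipopeptides, stood at 122, 145, 148 and 233 normalized counts in Controls 1 to 4 and 29.0, 38.9, 22.7 and 52.4 in TAM depleted 1 to 4 (log2 fold change -2.17, SE 0.38, adjusted p = 0.0107). Fyb, an adaptor of T cells and myeloid cells, and Myo1f, a myosin of leukocytes, had log2 fold changes of -1.86 and -1.71 (adjusted p = 0.0114 and 0.0107). Also among these falls were Fkbp10 (-2.13), Fkbp14 (-1.75), Rcn3 (-2.02) and Tram2 (-1.87), with adjusted p = 0.0107, 0.0114, 0.0107 and 0.00932. Fkbp10, a prolyl isomerase, stood at 297, 338, 619 and 393 normalized counts in Controls 1 to 4 and 86.5, 99.3, 56.1 and 133 in TAM depleted 1 to 4. Every control lay above every depleted tumour for all 8.

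Among the rises were 2 proteins of 1 receptor complex that limits axon growth. Rtn4r, the Nogo receptor, stood at 21.4, 22.3, 24.0 and 16.4 normalized counts in Controls 1 to 4 and 131, 695, 69.0 and 199.96 in TAM depleted 1 to 4 (log2 fold change 3.12, SE 0.51, adjusted p = 0.00932), and its partner Lingo1 at 46.5, 359, 146 and 156 normalized counts in Controls 1 to 4 and 1389, 3812, 527 and 951 in TAM depleted 1 to 4 (log2 fold change 3.18, SE 0.57, adjusted p = 0.0114). Cnr1, the cannabinoid receptor of nerve terminals, rose by 2.65, Ncs1, a neuronal calcium sensor, by 3.35, and Myt1l, a transcription factor of neurons, by 2.87 (adjusted p = 0.00917, 0.00917 and 0.0103). TAM depleted 2 was the highest of all 8 libraries for each of these 5 genes.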
